A study of Rattus norvegicus with 12 samples.

Results

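The genes described here encode the angiotensin and endothelin systems, which are 9 genes in all: the angiotensin precursor Agt, the converting enzyme Ace, the receptors Agtr1a and Agtr2, the receptor-associated protein Agtrap, the endothelin precursor Edn1, the receptors Ednra and Ednrb, and the endothelin converting enzyme Ece1. They were listed by name, and the set was selected on the measured values of Agt, which were low except in the double knockdown libraries. Of the 9 genes, 8 were among the 12271 genes of the table. Agtr2 had no row in the table analysed here. RNA was sequenced from cultured fibroblasts, the cells that lay down the matrix of the heart, taken from the ventricles of Sprague Dawley rats at postnatal day 2 and grown with 15% fetal bovine serum. The cells received negative siRNA, Yap siRNA, Wwtr1 siRNA or Yap+Wwtr1 siRNA, with 3 libraries in each of the 4 groups. Yap (symbol Yap1) and its relative Wwtr1 (or Taz) are coactivators of transcription that the Hippo pathway restrains. Per the labels, a target was hit with a pair of siRNAs at 25 nM each, and RNA was collected 48 hours after transfection. The study's methods differ from the labels, giving less serum than 15% after transfection and a later collection. Replicates came from separate litters according to the study's methods. The siRNA field of the double knockdown samples names the Wwtr1 siRNAs alone, so that group rests on the sample titles.

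In the angiotensin system, angiotensinogen, the product of Agt, is cut to angiotensin I, which Ace shortens to angiotensin II. Angiotensin II acts on type 1 receptors, which couple to Gq proteins and are known in the heart for promoting matrix production by fibroblasts. In the endothelin system, the product of Edn1 is matured by Ece1 into endothelin-1, a strong vasoconstrictor that acts on the receptors Ednra and Ednrb. Liver is the main source of circulating angiotensinogen, and endothelial cells are a main source of endothelin-1.

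The libraries held 33886920 to 41059839 recovered reads, and a level below is a normalized count, which is a read count divided by the size factor of its library. The recovered totals exceed the sequencing depth that the study's methods state, so a recovered read may not be 1 sequenced fragment, and which unit was counted is not given in the sources used here. Yap1 ran from 2984 to 3776 normalized counts under negative siRNA and from 532 to 625 under Yap siRNA, and Wwtr1 ran from 2280 to 2565 under negative siRNA and from 524 to 637 under Wwtr1 siRNA. In double knockdown replicates 1, 2 and 3, Yap1 was 713, 739 and 1474 and Wwtr1 was 818, 731 and 1056. Replicate 3 of the double knockdown stood apart from its group. Its pairs with replicates 1 and 2 differed by a chi-square per gene of 120 and 124, against 19.6 to 49.2 in the other 10 pairs of libraries within a group. The summed level of 13 macrophage markers in it was 56832 normalized counts, against 8535 and 16861 in replicates 1 and 2 and 27432 to 39154 under negative siRNA. For genes named with a result, values without this library are given where they end a call or move the value by over 1.5-fold.

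Agt was low in every library except those of the double knockdown. It was 24.6, 40.0 and 37.2 normalized counts under negative siRNA, 30.7, 52.5 and 46.1 under Yap siRNA and 11.5, 50.004 and 30.5 under Wwtr1 siRNA. In the double knockdown it was 917, 889 and 1119. The lowest double knockdown library stood 16.9-fold above the highest of the other 9, while the negative, Yap and Wwtr1 siRNA libraries overlapped one another. Means were 33.9 ± 8.18 (SD, n = 3) under negative siRNA, 43.1 ± 11.2 under Yap siRNA, 30.7 ± 19.3 under Wwtr1 siRNA and 975 ± 125 in the double knockdown, so that the double knockdown mean was 28.7 times the negative siRNA mean. On the log2(normalized count + 1) scale the difference was 4.83, and it ran from 4.50 to 4.96 over the settings examined. The values of the 9 low libraries rested on 11 to 49 recovered reads each, and those of the double knockdown on 922 to 1275. Because this pattern chose the gene, no test is given for Agt. These are bulk libraries, in which fewer cells of a type and less RNA per cell cannot be told apart.

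**Figure D1:**
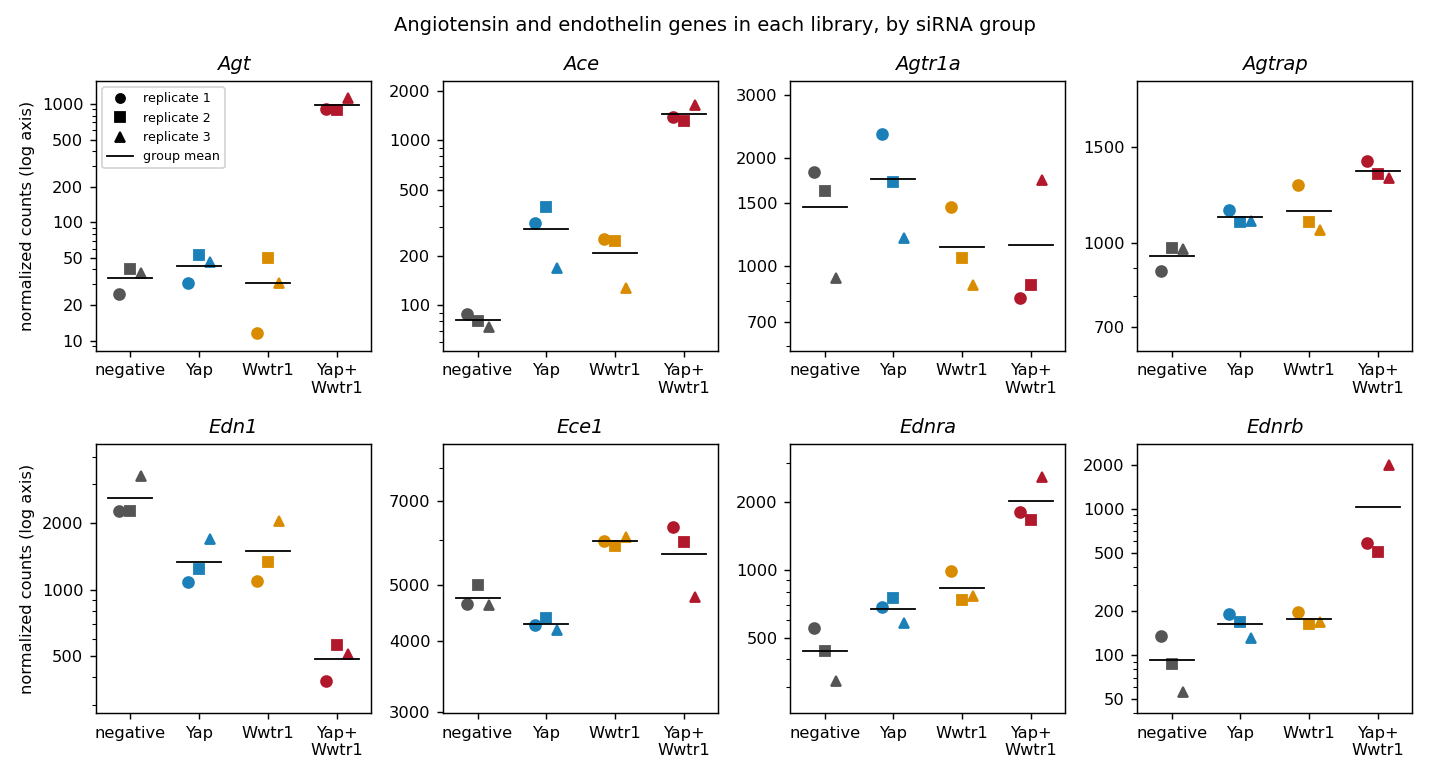
Each panel shows 1 gene, with normalized counts per library on a log axis against siRNA group, the marker shape giving the replicate number and the line the group mean (n = 3). Agt is at 52.5 or below in 9 libraries and at 889 or above in the 3 double knockdown libraries, Ace, Ednra, Ednrb and Agtrap are also highest there, and Edn1 is lowest there.

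The other 7 genes were tested in a limma model fitted to 11871 genes. In the double knockdown against negative siRNA, 5 of the 7 passed at an adjusted p under 0.05, with Ace, Agtrap, Ednra and Ednrb higher and Edn1 lower. Of all genes tested, 32.8% passed in that comparison, 17.1% higher and 15.6% lower. The median absolute log2 fold change of the 7 genes was 2.22, against 0.27 over all genes tested. Yap siRNA alone changed 2 of the 7 (Ace higher, Edn1 lower), where 4.8% of all genes passed, 3.02% higher and 1.78% lower. Wwtr1 siRNA alone raised 3 of the 7 (Ace, Ece1 and Ednra), where 8.96% of all genes passed, 5% higher and 3.96% lower. Against the single knockdowns, the double knockdown differed in 6 of the 7 from Yap siRNA, where 13.8% of all genes passed, and in 4 of the 7 from Wwtr1 siRNA, where 19.9% passed. The comparisons against negative siRNA share their control libraries, and every comparison of the double knockdown shares its 3 libraries.

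**Figure D2:**
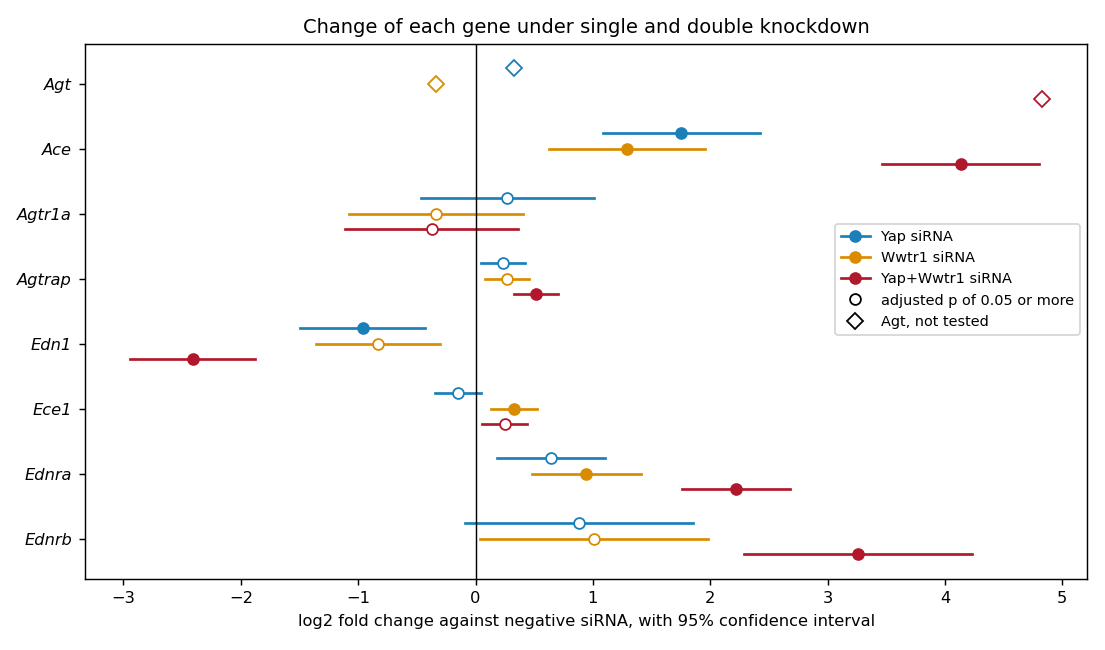
The log2 fold change of each gene against negative siRNA is shown with its 95% confidence interval for Yap siRNA, Wwtr1 siRNA and Yap+Wwtr1 siRNA (limma, n = 3 per group), with filled points for an adjusted p under 0.05 and diamonds without interval for Agt, which was not tested. Ace reaches 4.13 and Edn1 -2.41 in the double knockdown, while all 3 intervals of Agtr1a span 0.

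The sequences upstream of 4 of the genes are shown because, of the 7 tested genes, these moved most in the double knockdown, Ace, Ednra and Ednrb upward and Edn1 downward. They are the 250 bases before the annotated start of each gene, taken from RefSeq on build GRCr8 and written 5′ to 3′ on the strand of the gene. They lie at chr17:22666688-22666937 on the minus strand for Edn1, chr10:91409879-91410128 on the plus strand for Ace, chr19:47137674-47137923 on the plus strand for Ednra and chr15:87086766-87087015 on the minus strand for Ednrb. Capitals mark matches to a TATA box (TATAAA) or a GATA motif (AGATAA) on either strand.
Edn1: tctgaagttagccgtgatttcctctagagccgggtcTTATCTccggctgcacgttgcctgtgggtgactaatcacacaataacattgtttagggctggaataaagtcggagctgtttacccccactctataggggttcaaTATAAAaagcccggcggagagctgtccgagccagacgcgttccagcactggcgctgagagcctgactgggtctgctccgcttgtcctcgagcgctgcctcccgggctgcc
Ace: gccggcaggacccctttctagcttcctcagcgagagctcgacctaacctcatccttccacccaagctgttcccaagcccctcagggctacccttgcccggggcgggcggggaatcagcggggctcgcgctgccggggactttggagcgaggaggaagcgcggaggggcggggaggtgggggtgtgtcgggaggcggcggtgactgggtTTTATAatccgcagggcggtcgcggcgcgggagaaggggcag
Ednra: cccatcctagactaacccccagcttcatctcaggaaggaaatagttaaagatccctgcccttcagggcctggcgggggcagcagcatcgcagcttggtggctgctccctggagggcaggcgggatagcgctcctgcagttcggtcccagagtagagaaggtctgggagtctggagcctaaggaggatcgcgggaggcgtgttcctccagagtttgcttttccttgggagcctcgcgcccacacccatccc
Ednrb: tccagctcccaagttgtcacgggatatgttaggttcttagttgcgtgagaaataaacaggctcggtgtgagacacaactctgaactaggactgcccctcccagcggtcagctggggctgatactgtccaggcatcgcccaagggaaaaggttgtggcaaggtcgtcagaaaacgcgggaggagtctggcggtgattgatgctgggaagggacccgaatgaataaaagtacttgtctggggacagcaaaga
Edn1 held TATAAA at bases -110 to -105 and the reverse complement of AGATAA at -214 to -209, counted back from its start, and these matches did not overlap. Ace held the reverse complement of TATAAA at -42 to -37, and Agtr1a, whose sequence is not printed, held TATAAA at -45 to -40. Ednra and Ednrb held neither motif. TATAAA occurred in 14.2% and AGATAA in 11.6% of 33469 rat promoters of 300 bases (250 before and 50 after the start). The TEAD motif CATTCC (14.2% of promoters), through whose factors Yap and Wwtr1 are known to act, the AP-1 motif TGANTCA (7.33%) and the interferon-stimulated response element (3.92%) were searched on both strands in the same windows. None of these 3 had a match in the 8 promoters with an entry, which says only that those letters are not in those windows. Agt was the 1 gene of the 9 without an entry.

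Ace, the enzyme that makes angiotensin II, rose in all 3 knockdowns. With negative siRNA it was 89.3, 80.0 and 74.4 normalized counts, under Yap siRNA 314, 394 and 169, under Wwtr1 siRNA 251, 247 and 128, and under Yap+Wwtr1 siRNA 1391, 1313 and 1630. No single knockdown library overlapped a negative siRNA library, and the double knockdown libraries all lay above the other 9, the lowest of them 3.33-fold above the highest of those. The log2 fold change against negative siRNA was 1.75 (SE 0.31, adjusted p = 0.0104 by limma) under Yap siRNA, 1.29 (SE 0.31, adjusted p = 0.0219 by limma) under Wwtr1 siRNA and 4.13 (SE 0.31, adjusted p = 8.6e-06 by limma) in the double knockdown. Ace was also higher in the double knockdown than under Yap siRNA (log2 fold change 2.38, adjusted p = 0.000701 by limma) and than under Wwtr1 siRNA (2.84, adjusted p = 0.000188 by limma). The single knockdown calls each rested on particular libraries. The adjusted p for Yap siRNA was 0.0562 when Yap siRNA replicate 1 was left out and 0.0505 when negative siRNA replicate 3 was, and that for Wwtr1 siRNA was 0.0938 and 0.0956 without Wwtr1 siRNA replicate 1 or 2 and 0.0628 and 0.0773 without negative siRNA replicate 2 or 3.

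Agtr1a, the main type 1 angiotensin receptor of rodents, passed in no comparison of this model. Its normalized counts were 1831, 1615 and 928 under negative siRNA, 2337, 1715 and 1200 under Yap siRNA, 1458, 1052 and 889 under Wwtr1 siRNA, and 817, 889 and 1735 under Yap+Wwtr1 siRNA. The groups overlapped. In each of the first 3 groups replicate 1 was highest and replicate 3 lowest, and in the double knockdown replicate 3 was highest. The log2 fold change was 0.27 (95% confidence interval -0.47 to 1.01) under Yap siRNA, -0.34 (-1.07 to 0.40) under Wwtr1 siRNA and -0.37 (-1.11 to 0.36, adjusted p = 0.428 by limma) in the double knockdown, and the value for Yap siRNA was -0.027 without negative siRNA replicate 3. Without double knockdown replicate 3 the double knockdown value was -0.72 (adjusted p = 0.0974 by limma). Agtr1b, a near-identical gene, had no row in the table, so reads of both genes may be counted together.

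Agtrap, which binds the type 1 receptor and promotes its internalization, was 888, 980 and 975 normalized counts under negative siRNA, 1150, 1093 and 1097 under Yap siRNA, 1278, 1091 and 1056 under Wwtr1 siRNA and 1413, 1337 and 1312 under Yap+Wwtr1 siRNA. All 3 knockdown groups lay above the negative siRNA libraries without overlap, and the double knockdown libraries lay above the other 9. Only the double knockdown passed the test, with a log2 fold change of 0.52 (SE 0.09, adjusted p = 0.000903 by limma), against 0.23 (adjusted p = 0.156 by limma) under Yap siRNA and 0.27 (adjusted p = 0.0799 by limma) under Wwtr1 siRNA. Against Yap siRNA the double knockdown was higher by 0.28 (adjusted p = 0.0496 by limma). This last call was lost without any 1 library other than Wwtr1 siRNA replicates 1 and 3, with adjusted p from 0.0561 to 0.143, and in 5 other settings, with adjusted p from 0.0511 (no filter on low values) to 0.0904 (only the compared groups in the fit).

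Edn1, the precursor of endothelin-1, was lowest in the double knockdown. It was 2258, 2265 and 3265 normalized counts under negative siRNA, 1078, 1239 and 1696 under Yap siRNA, 1095, 1329 and 2038 under Wwtr1 siRNA and 385, 564 and 511 under Yap+Wwtr1 siRNA. Neither single knockdown overlapped the negative siRNA libraries, and every double knockdown library was below the other 9, the lowest of which was 1.91-fold above the highest double knockdown library. The log2 fold change in the double knockdown was -2.41 (SE 0.24, adjusted p = 4.03e-05 by limma). Edn1 fell by 0.96 on the log2 scale under Yap siRNA (SE 0.24, adjusted p = 0.0463 by limma), and the value under Wwtr1 siRNA was -0.83 (SE 0.24, adjusted p = 0.0554 by limma). It was lower in the double knockdown than under Yap siRNA by a log2 fold change of -1.45 (adjusted p = 0.00298 by limma) and than under Wwtr1 siRNA by -1.58 (adjusted p = 0.00136 by limma). The Yap siRNA call was lost, with adjusted p from 0.0561 to 0.179, without any 1 of the 3 negative siRNA libraries, Yap siRNA replicate 1 or 2, Wwtr1 siRNA replicate 2 or double knockdown replicate 2. The Wwtr1 siRNA value passed, with adjusted p from 0.0184 to 0.04997, without Wwtr1 siRNA replicate 3, Yap siRNA replicate 3 or double knockdown replicate 1 or 3.

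Ece1, the enzyme that matures endothelin-1, had its highest mean under Wwtr1 siRNA with all libraries (5958) and in the double knockdown without replicate 3 (6123). Its normalized counts were 4636, 5002 and 4609 under negative siRNA, 4259, 4378 and 4177 under Yap siRNA, 5957, 5858 and 6058 under Wwtr1 siRNA and 6304, 5941 and 4767 under Yap+Wwtr1 siRNA. The Wwtr1 siRNA libraries lay above and the Yap siRNA libraries below the negative siRNA libraries, and double knockdown replicate 3 fell among the negative siRNA values. Ece1 rose under Wwtr1 siRNA by a log2 fold change of 0.33 (SE 0.09, adjusted p = 0.0415 by limma), while the value was -0.15 (adjusted p = 0.386 by limma) under Yap siRNA and 0.25 (adjusted p = 0.0531 by limma) in the double knockdown. The double knockdown exceeded Yap siRNA by 0.40 (adjusted p = 0.0130 by limma), a call lost without Yap siRNA replicate 3 (adjusted p = 0.0545) and with only the compared groups in the fit (adjusted p = 0.0758). Without double knockdown replicate 3 the double knockdown value was 0.37 (adjusted p = 0.00136 by limma), and the Wwtr1 siRNA call was lost without any 1 library other than double knockdown replicates 1 and 3, with adjusted p from 0.0504 to 0.130. That call was also lost without the mean-variance trend (adjusted p = 0.0740) and with upper-quartile scaling (adjusted p = 0.0510).

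Both endothelin receptors rose in the double knockdown. Ednra, the receptor that mediates constriction in smooth muscle, was 554, 437 and 321 normalized counts under negative siRNA, 681, 753 and 580 under Yap siRNA, 985, 738 and 766 under Wwtr1 siRNA and 1812, 1676 and 2608 under Yap+Wwtr1 siRNA. No knockdown library of Ednra overlapped the negative siRNA libraries, and the lowest double knockdown library was 1.70-fold above the highest of the other 9. Its log2 fold change was 2.22 (SE 0.21, adjusted p = 2.98e-05 by limma) in the double knockdown, 0.94 (SE 0.21, adjusted p = 0.0166 by limma) under Wwtr1 siRNA and 0.64 (SE 0.21, adjusted p = 0.114 by limma) under Yap siRNA. The double knockdown exceeded Yap siRNA by 1.58 (adjusted p = 0.000886 by limma) and Wwtr1 siRNA by 1.28 (adjusted p = 0.00198 by limma). The Wwtr1 siRNA call for Ednra was lost without Wwtr1 siRNA replicate 1 (adjusted p = 0.0751) or negative siRNA replicate 3 (adjusted p = 0.0665).

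Ednrb, which in endothelium is linked to nitric oxide release and clears endothelin-1, was 134, 87.0 and 55.8 normalized counts under negative siRNA, 191, 167 and 130 under Yap siRNA, 196, 163 and 169 under Wwtr1 siRNA and 586, 507 and 1982 under Yap+Wwtr1 siRNA. The Yap siRNA libraries overlapped those under negative siRNA. Every double knockdown library was above the other 9, and replicate 3 was far above replicates 1 and 2. The log2 fold change was 3.26 (SE 0.45, adjusted p = 0.000242 by limma) in the double knockdown, and 2.64 (adjusted p = 0.000108 by limma) without its replicate 3. It was 0.88 (SE 0.45, adjusted p = 0.302 by limma) under Yap siRNA and 1.01 (SE 0.45, adjusted p = 0.195 by limma) under Wwtr1 siRNA, the last of which passed without double knockdown replicate 3 (adjusted p = 0.0342). Ednrb in the double knockdown exceeded Yap siRNA by 2.38 (adjusted p = 0.00538 by limma) and Wwtr1 siRNA by 2.25 (adjusted p = 0.00505 by limma), and by 1.76 and 1.63 without its replicate 3. Schwann cells also express Ednrb, and the summed level of 5 Schwann markers in double knockdown replicates 1, 2 and 3 was 328, 454 and 853 normalized counts, against 742 to 880 under negative siRNA. Of the endothelial markers, Tie1 was 264, 236 and 748 and Cdh5 217, 135 and 367 in those libraries. Others went the other way, with Flt1 at 3405, 2616 and 1609 and Esam at 432, 406 and 357. The part of Schwann cells, endothelial cells or macrophages in the replicate 3 value was not tested.

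Among the 7 tested genes, the double knockdown libraries lay above all other 9 in 4 (Ace, Agtrap, Ednra and Ednrb) and below them in 1 (Edn1). Of all genes tested, 8.63% lay above and 6.74% below in this way. The negative siRNA libraries were not overlapped by the double knockdown in 5 of the 7 (44.6% of all genes), by Yap siRNA in 5 (26.1%) or by Wwtr1 siRNA in 6 (32.7%).

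Libraries of the negative, Yap and Wwtr1 siRNA groups that carry the same number shared deviations from their group means, so each single knockdown library was also set beside the control of its own number. The ratio to that control was above 1 in 3 of 3 pairs for Ace, Agtrap, Ednra and Ednrb under both siRNAs, and below 1 in 3 of 3 for Edn1 under both. Edn1 stood at 0.477, 0.547 and 0.519 of the control under Yap siRNA and at 0.485, 0.587 and 0.624 under Wwtr1 siRNA. Agtr1a was at 1.28, 1.06 and 1.29 under Yap siRNA and at 0.796, 0.651 and 0.958 under Wwtr1 siRNA, so the directions differed between the siRNAs. Ece1 likewise was at 0.919, 0.875 and 0.906 under Yap siRNA and at 1.28, 1.17 and 1.31 under Wwtr1 siRNA. With the replicate number as a block and the double knockdown libraries left out, 4 of the 7 genes passed under Yap siRNA, where 16% of all genes passed, and 6 under Wwtr1 siRNA, where 21.3% passed. The genes gained under Yap siRNA were Ednra (adjusted p = 0.00898 by limma) and Ednrb (adjusted p = 0.0184 by limma). Those gained under Wwtr1 siRNA were Edn1 (adjusted p = 7.33e-05 by limma), Ednrb (adjusted p = 0.00758 by limma) and Agtr1a (adjusted p = 0.0329 by limma), the last of these lower. With the block on all 12 libraries only Edn1 of these was gained, under Wwtr1 siRNA (adjusted p = 0.00402 by limma).

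**Figure D3:**
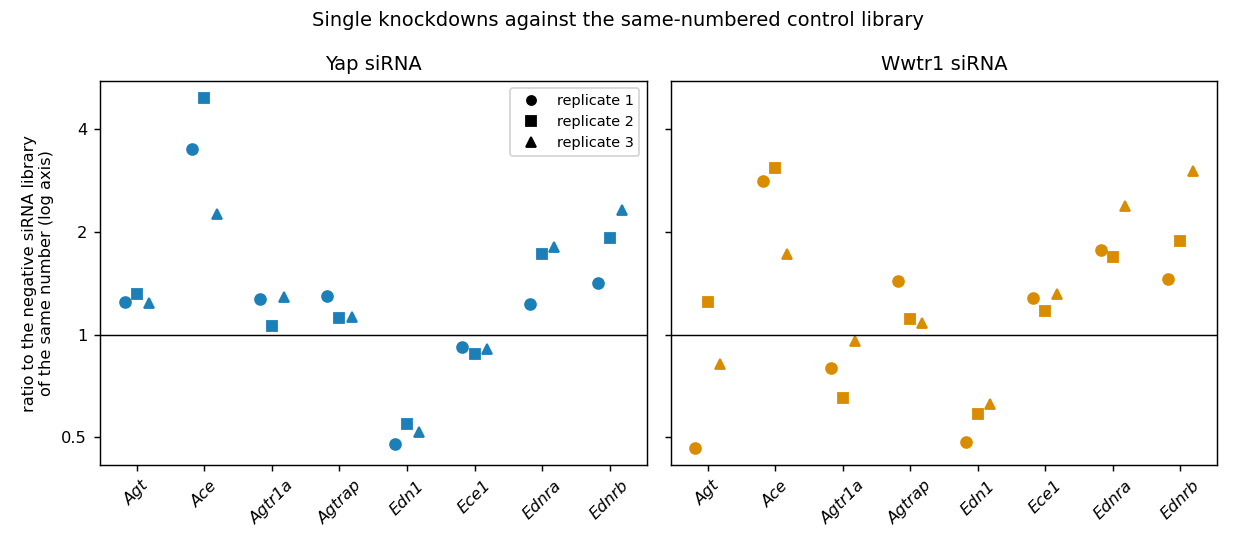
The ratio of each single knockdown library to the negative siRNA library of the same number is shown on a log axis for the 8 genes, with the marker shape giving the replicate number. All 3 ratios of Edn1 lie between 0.477 and 0.624 under either siRNA, those of Ace between 1.72 and 4.93, and those of Agt on both sides of 1 under Wwtr1 siRNA.

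Whether the double knockdown exceeded the sum of the single effects was examined as an interaction, the double knockdown log2 fold change minus both single log2 fold changes. None of the 7 genes passed at an adjusted p under 0.05 by limma, edgeR or DESeq2, while 1.03% of all genes did by limma, 0.859% by edgeR and 4.21% by DESeq2. At an unadjusted p under 0.05, 1 of the 7 passed by limma, where 14% of all genes did. It was Ace, with an interaction of 1.09 (SE 0.43, 95% confidence interval 0.15 to 2.03, adjusted p = 0.274 by limma). Ednrb had 1.37 (-0.0045 to 2.74), which was 0.75 without double knockdown replicate 3, Ednra 0.63 (-0.02 to 1.28) and Edn1 -0.62 (-1.37 to 0.13). Agtrap had 0.02 (-0.25 to 0.28) and Ece1 0.07 (-0.21 to 0.35), the narrowest intervals of the 7, and Agtr1a had -0.31 (-1.35 to 0.74). Without double knockdown replicate 3, the interaction was -0.65 for Agtr1a, 0.19 for Ece1 and 0.039 for Agtrap. A missed threshold does not show that effects added, since for Ace, Ednra and Ednrb the intervals reach above 1.

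**Figure D4:**
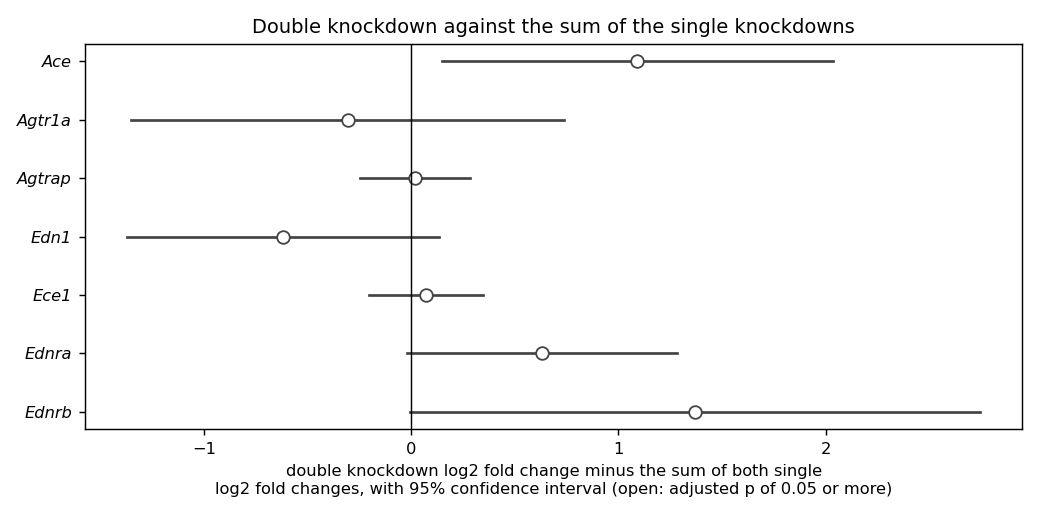
The interaction of the 7 tested genes, on the log2 scale with its 95% confidence interval (limma, n = 3 per group), is shown with open points because no adjusted p was under 0.05. The interval of Ace lies above 0, those of Ednra and Ednrb reach just below it, and those of Agtrap and Ece1 are narrow around it.

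The same comparison in normalized counts gave differences that depended on the gene. For Ace the double knockdown mean exceeded the negative siRNA mean by 1364, while the sum of the single differences was 338. Ednra exceeded it by 1594 against a sum of 626, and Ednrb by 933 against 154. Without double knockdown replicate 3 the difference was 454 for Ednrb, 1306 for Ednra and 1271 for Ace. Edn1 went the other way, its difference of -2109 being smaller in size than the sum of -2367, and Agtrap stood at 407 against 360. For Agt, given as a description, the difference was 941 and the sum of the single differences 5.88.

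Genes whose levels followed those of Agt were sought by Pearson correlation of log2 levels over the 12 libraries among 10101 other genes whose mean reached 100 normalized counts. These values are a description and are carried by the 3 double knockdown libraries, which all such genes share. The highest were Adcyap1r1, a receptor for the neuropeptide PACAP (r = 0.966), the phosphatase Ptpn1 (0.951), the cytokine receptor subunit Csf2rb (0.948), the myosin Myo1e (0.944), the phosphodiesterase Pde10a (0.938) and Tmem26 (0.937), and 42 genes had r above 0.9. Adcyap1r1 ran from 22.6 to 87.8 normalized counts in the other 9 libraries and was 427, 436 and 605 in the double knockdown. It therefore reached the required mean of 100 only through the double knockdown libraries, so the filter and the choice of Agt favour such a gene. The lowest were the proteoglycan Sdc2 (-0.951), RGD1308428 (-0.949) and the translation factor subunit Eef1g (-0.945). Among the members, Ace was at 0.856, Ednrb at 0.825, Ednra at 0.802, Agtrap at 0.688, Ece1 at 0.274, Agtr1a at -0.324 and Edn1 at -0.808. Ace held rank 132 in that order, Ednrb rank 208 and Ednra rank 292.

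Other genes of both systems were read in the double knockdown. Of 22 listed genes of the wider angiotensin and kinin system, 15 were tested, 3 were higher and 0 lower against negative siRNA (32.8% of all genes passed), 12 did not pass, and the median log2 fold change was 0.21, against 0.0035 over all genes. Bdkrb2, the B2 bradykinin receptor, rose by a log2 fold change of 3.21 (adjusted p = 0.000124 by limma), from 23.6, 49.98 and 21.7 normalized counts to 372, 293 and 204. Enpep, the aminopeptidase that trims angiotensin II, rose by 1.41 (adjusted p = 0.000270 by limma), and Mme (neprilysin), which degrades several vasoactive peptides, by 0.57 (adjusted p = 0.0231 by limma). Agtr1b, the chymase Cma1, Ctsg, Mrgprd and Kng1 were among the listed genes with no row in the table. Of 11 listed endothelin and natriuretic peptide genes, 7 were tested, with 1 higher, 0 lower and a median of -0.28. The gene that rose was Npr1, the natriuretic peptide receptor that forms cyclic GMP (log2 fold change 0.32, adjusted p = 0.0380 by limma), a call lost without double knockdown replicate 3 (adjusted p = 0.0688). Edn2, Edn3 and Kel had no row.

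Downstream of the receptors, 32 genes of Gq coupling and receptor signalling were tested, and 10 were higher and 7 lower in the double knockdown (17.1% and 15.6% of all genes), with a median log2 fold change of -0.03. Rgs2, which restrains Gq signals, rose by 2.14 (adjusted p = 8.98e-06 by limma), from 345, 341 and 272 normalized counts to 1394, 1624 and 1216. The double knockdown libraries of Rgs2 were all above the other 9, whose highest value was 491 under Wwtr1 siRNA. Nfatc1 (1.10), Nfatc4 (0.97) and Rgs5 (0.97) also rose. Nox4, an oxidase that angiotensin II is known to engage, had a log2 fold change of -1.69 (adjusted p = 6.92e-05 by limma), and the kinase Rock2 one of -1.03 (adjusted p = 0.000134 by limma). Nox4 was 412 to 548 normalized counts under Yap siRNA and 1064 to 1284 under Wwtr1 siRNA, against 871 to 1044 under negative siRNA and 211 to 376 in the double knockdown.

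Agt is also an acute phase gene and belongs to the serpin family. Of 22 listed acute phase genes and their inducers, 17 were tested, and 12 were higher and 0 lower in the double knockdown (17.1% and 15.6% of all genes), with a median log2 fold change of 0.79. Serpina3n, a serpin protease inhibitor, rose by 4.86 (adjusted p = 0.00182 by limma), from 19.5, 21.0 and 8.27 normalized counts to 408, 247 and 1018. Lcn2 rose by 2.94, the complement component C3 by 2.69, the ferroxidase Cp by 1.88, the lipopolysaccharide binding protein Lbp by 1.77 and the transcription factor Cebpb by 1.402. Lbp and C3 were highest in double knockdown replicate 3, at 6545 and 1264 normalized counts, against 1554 to 2049 and 377 to 395 in replicates 1 and 2. Without replicate 3 the log2 fold change of Lbp was 1.14 (adjusted p = 0.0202 by limma). That of Serpina3n was then 4.30, of Lcn2 2.72, of C3 2.12, of Cp 1.79 and of Cebpb 1.376. In that fit 12 of the 17 genes were again higher, where 16.9% of all genes were higher and 17.2% lower. Of 11 tested serpins, 3 were higher (Serping1 3.96, Serpini1 2.39 and Serpinb9 1.14) and 1 was lower, where 32.8% of all genes passed. Of 8 tested glucocorticoid response genes, Hsd11b1 (1.55) and Fkbp5 (0.48) were higher and Dusp1 (-0.92) was lower, a share near the 32.8% of all genes. The Fkbp5 call was lost without double knockdown replicate 3 (adjusted p = 0.0539).

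**Figure D5:**
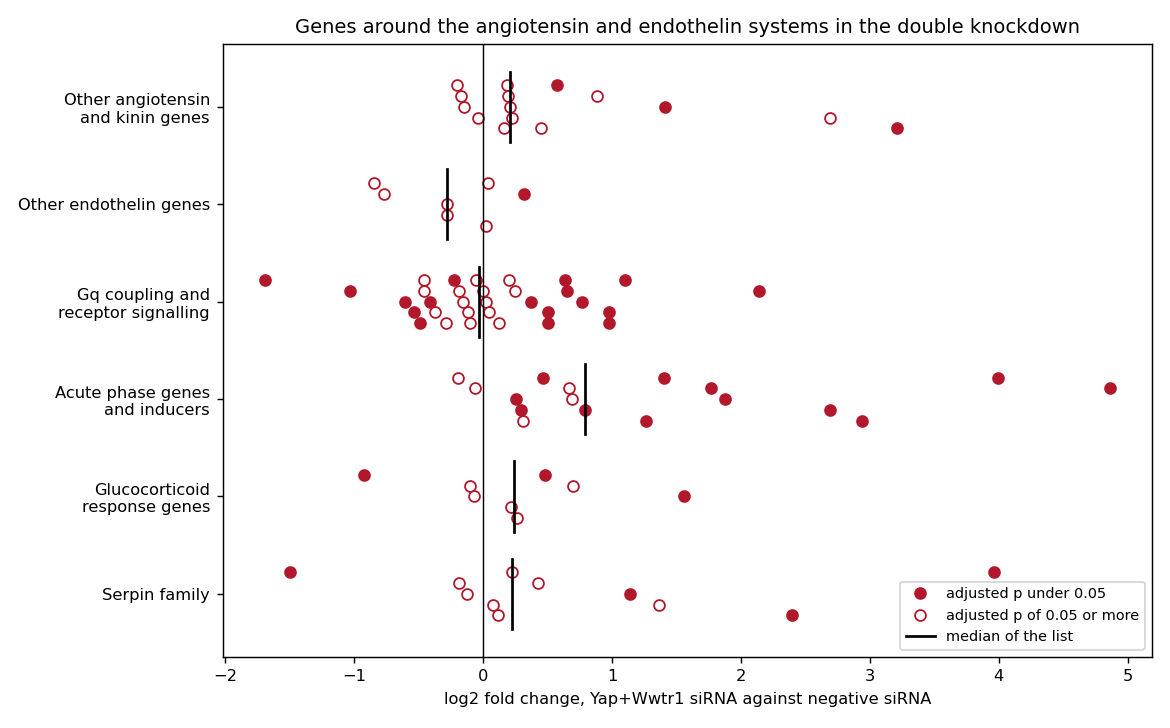
The log2 fold change of each tested gene in the double knockdown against negative siRNA is shown for 6 lists, with filled points for an adjusted p under 0.05 (limma, n = 3 per group) and a line at the median of each list. The acute phase list lies to the right with a median of 0.79, while the signalling list spreads to both sides with a median of -0.03.

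Markers of cells that could accompany fibroblasts were read beside these results. Beside each count of markers stand the 32.8% of all genes that passed in the double knockdown against negative siRNA, 17.1% higher and 15.6% lower. None of the 12 fibroblast markers was at 0 throughout a group, which also held for the markers present of every other list. Of the 12, 4 were higher (Dcn 2.01, Pdgfra 1.76, Lum 1.47 and Postn 0.72) and 3 lower (Vim -0.74, Col1a2 -0.43 and Tcf21 -0.42) on the log2 scale in the double knockdown. Col1a1 (0.11) and Col3a1 (-0.04) did not pass. Of 14 endothelial markers, 8 were higher and 0 lower in the double knockdown, and their summed level was 38890 to 43083 normalized counts there, 27217 to 31964 under negative siRNA, 32163 to 38369 under Yap siRNA and 25254 to 30570 under Wwtr1 siRNA, carried mostly by Eng, followed by Flt1 and Tek. Endothelial cells express Ace, Ednrb and Edn1, which moved in different directions, and the part of endothelial cells in these results was not tested. Of 11 cardiomyocyte markers, 3 were higher (summed level 73076 to 95803 in the double knockdown and 43279 to 76231 under negative siRNA), with Myh6 (1.83) among them and Tnnt2 and Actc1 not. Of 13 macrophage markers 1 was lower (Cx3cr1), Cd163 had no row, and Lyz2, Cd68 and Csf1r, the most abundant, did not pass. Without double knockdown replicate 3, 12 of the 13 were lower and 0 higher, where 34.2% of all genes passed, with Cx3cr1 at -5.79 in place of -4.69, Lyz2 at -1.57 (adjusted p = 0.00379 by limma), Csf1r at -1.72 (adjusted p = 0.00209 by limma) and Cd68 at -0.63 (adjusted p = 0.133 by limma). In the same fit 5 endothelial markers and 1 cardiomyocyte marker were higher, 4 mural markers were higher and 3 lower, 2 mesothelial markers were higher and 2 lower, Aldh1a2 (-1.37) now among them, and Sox10 was at -0.84 (adjusted p = 0.425 by limma). The part of the macrophage difference in the results above was not tested. Of 10 mural cell markers, which smooth muscle and pericytes express, 3 were higher and 3 lower (181925 to 284021 against 370564 to 462490). Acta2 (-1.18) and Notch3 (-0.81) were lower on the log2 scale, and Pdgfrb did not pass. Of 8 mesothelial markers 2 were higher, Tbx18 (0.29) among them, and 1 was lower, Aldh1a2 and Wt1 did not pass, and Upk3b and Lrrn4 had no row. Of 5 Schwann cell markers 1 was higher and 1 lower (Mbp, -1.77), Sox10 did not pass, and Foxd3 had no row. The cardiomyocyte, mesothelial and Schwann counts are near the share of all genes. Of 9 hepatocyte markers, the liver being the main site of Agt expression, 3 were present (Tf, Cyp2e1 and Apoa1), with a summed level of 90.5 to 287 normalized counts in the double knockdown and 115 to 168 under negative siRNA. The other 6 hepatocyte markers (Alb, Apoa2, Ttr, Fga, Fgb and Serpina1) had no row in the table, and neither of the tested ones passed.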

How the data were processed

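Bulk RNA from 12 libraries of neonatal rat ventricular fibroblasts was analysed, 3 in each of 4 siRNA groups, with groups taken from the sample titles. The authors deposited gene counts divided by DESeq2 size factors (a normalized count, or signal), and per their methods and the processing notes reads were trimmed with Trim Galore 0.6.5, aligned to rn6 with HISAT2 and counted with StringTie. Strandedness is not given in the sources used here. Their tables of fold changes and p-values were not used. Whole reads could be recovered for 100% of 147252 values (tolerance 0.01 reads), at 33886920 to 41059839 per library. In 6 cases a library was at 0 while both others of its group exceeded 100.

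Values were tested as log2(normalized count + 1) in limma 3.58.1 (R 4.3.3) with a mean-variance trend, on the 11871 genes whose mean reached 10 normalized counts, with all 12 libraries in 1 fit. Benjamini-Hochberg adjustment ran over all of them, the threshold was an adjusted p of 0.05 and intervals are 95%. Fold changes on this scale understate those of low genes. The test was checked on simulated data. Alternatives were edgeR 4.0.16 (quasi-likelihood) and DESeq2 1.42.0 on recovered reads, other pseudocounts, filters and scalings, a replicate block and leaving out each library. The study's methods state that litters differed between the 3 replicates, which does not say that a number marks a litter. Libraries of the same number had deviations that correlated at 0.104 to 0.276 in the 9 pairs among the negative, Yap and Wwtr1 siRNA groups, so those numbers were taken to pair the libraries. In the 9 pairs with the double knockdown they correlated at -0.127 to 0.180, and these were taken to share only a number. The ranges overlap, and the choice was made on these same values. Pairs of Wwtr1 siRNA with the double knockdown were all above 0 (0.180, 0.0678 and 0.0878).

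The genes and lists were chosen with earlier results of these data known. Named in the text were all members, up to 6 called genes of each pathway list by absolute log2 fold change in the double knockdown whose mean reached 50 normalized counts, the 6 genes with the highest and 3 with the lowest correlation with Agt, and, of the marker lists, absent genes and the 3 of highest mean. Cx3cr1 and the fibroblast markers that passed were named, and the TATA and GATA motifs were chosen, after the values and sequences were seen. Promoters came from RefSeq (GRCr8). Some genes of the lists are not reported here.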

Additional observations from a re-analysis of the deposited data

How the results depend on the processing

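Over 24 alternative settings, 973 values of the 7 tested genes were computed, of which 896 kept their direction and their side of the threshold, 45 lost a call, 19 gained one and 13 changed direction, none of these 13 with a call. Among the 7 tested genes, the count called with Yap siRNA was 2. It was 0 to 2 when 1 library was left out, and 1 without the mean-variance trend. Of all 11871 genes, 570 passed in the main fit, 111 to 764 with 1 library left out and 294 without the trend. The count with Wwtr1 siRNA was 3, and it was 0 to 5 when 1 library was left out, 5 with DESeq2, and 2 without the mean-variance trend or with upper-quartile scaling. Of all genes, 1064 passed here in the main fit and 548 to 1419 with 1 library left out. The number was 1545 with DESeq2, 832 without the trend and 1066 with upper-quartile scaling. With the replicate number as a block and without the double knockdown libraries, an alternative chosen after seeing the data, the counts were 4 with Yap siRNA and 6 with Wwtr1 siRNA. Of all genes, 16% and 21.3% passed in that fit. With the block on all 12 libraries, the calls that differed were those of Edn1 with Wwtr1 siRNA (adjusted p = 0.00402, limma) and Ece1 in the double knockdown (adjusted p = 0.0439, limma). The double knockdown count stayed at 5 or 6 against negative siRNA, at 4 to 6 against Yap siRNA and at 4 or 5 against Wwtr1 siRNA, and the interaction count stayed at 0. Of all genes, 3888 passed against negative siRNA in the main fit and 2745 to 4205 in the alternatives. These numbers were 1637 and 758 to 2193 against Yap siRNA, 2359 and 1288 to 2887 against Wwtr1 siRNA, and 122 and 31 to 500 for the interaction. Of the values that changed direction, Agt under Wwtr1 siRNA, which was not tested, ran from -0.79 to 0.23 when 1 library was left out, and was above 0 without Wwtr1 siRNA replicate 1. Agtr1a with Yap siRNA ran from -0.027 to 0.52 when 1 library was left out. Agtr1a in the double knockdown against Wwtr1 siRNA ran from -0.38 to 0.16, and was 0.0091 with edgeR and 0.018 with DESeq2. Ece1 in that comparison ran from -0.16 to 0.04, and the interactions of Agtrap and Ece1 from -0.037 to 0.10 and from -0.011 to 0.19. Apart from the smaller number of libraries where 1 was left out, the cause was not tested. Other scalings moved the median of all genes by at most 0.039 on the log2 scale. The low levels of Agt rest on few reads, and the single knockdown calls rest on 3 libraries a group.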
